A study of Mus musculus with 10 samples.

Results

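Neurotransmitter receptors are the membrane proteins through which cells detect glutamate, GABA, glycine, acetylcholine, serotonin, dopamine, noradrenaline and extracellular nucleotides. The genes described here were chosen by symbol: the AMPA, kainate and NMDA subunits and metabotropic receptors of glutamate, the GABA-A, GABA-B and glycine receptors, the nicotinic and muscarinic receptors, the serotonin, dopamine and adrenergic receptors, and the P2X and P2Y receptors of nucleotides. The nicotinic genes Chrna9 and Chrna10 were left out by that choice. It took 115 of the 54532 genes in the count table, and 92 of these had at least 10 counts in at least 5 libraries and were tested, among 18061 tested genes in all.

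The tissue was the cochlear soft tissue of female mice on postnatal day 1, freed of its bony capsule, with the left and right cochlea of an animal pooled into 1 library. Both groups carried Esrrg alleles flanked by loxP sites (Esrrgfl/fl), and Esrrg encodes the nuclear receptor estrogen-related receptor gamma. The 5 control libraries had this genotype alone. The 5 libraries labelled cKO had the genotype Esrrgfl/fl;Sox10-Cre, in which Cre recombinase is driven by regulatory sequence of Sox10, a gene of the otic epithelium and of neural crest derived glia and melanocytes. The series' title describes an inner-ear conditional knockout of Esrrg, and the comparison asks how gene expression differs between these genotypes.

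In the cochlea, inner hair cells release glutamate onto the dendrites of spiral ganglion neurons, which receive it mainly through AMPA receptors. Efferent fibres from the brainstem bring acetylcholine, GABA and other transmitters, and supporting cells release ATP that acts on P2X and P2Y receptors in the developing organ. Ionotropic receptors are ion channels built of several subunits, while metabotropic receptors act through G proteins.

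Library totals were 33487089 to 41779836 counts, of which the receptor genes took 0.0784 to 0.0956%. Esrrg itself was higher in the libraries labelled cKO: its CPM (counts scaled to a common library total with TMM factors) were 56.3, 47.9, 61.2, 64.8 and 62.0 in control 1 to 5 and 109.0, 96.2, 78.5, 70.6 and 94.2 in the libraries labelled cKO 1 to 5. The groups did not overlap (mean ± SD of 58.5 ± 6.64 CPM against 89.7 ± 15.2, n = 5 each, log2 fold change 0.62, SE 0.118, edgeR adjusted p = 0.0292). The exact two-sided permutation p was 0.00794, the smallest that 252 assignments of 5 against 5 allow. The direction therefore goes against the label of a knockout, whole-gene counts do not show whether the floxed exons were lost, and the second group is called by its label throughout. Leaving out control 1, 3 or 5, or cKO 1, 2 or 5, ended the Esrrg call (adjusted p = 0.0809, 0.0910, 0.0562, 0.0619, 0.0995 and 0.0872). On the first principal component of log2 CPM, which held 25.6% of the variance, control 2 lay at -29.5 while the other controls lay between -4.23 and 6.82, and cKO 5 lay at 17.3. All 10 hair cell markers and all 6 markers of marginal cells of the stria vascularis were expressed above the count minimum.

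Among the tested receptor genes, 5 passed the test (adjusted p under 0.05) with lower counts in the libraries labelled cKO, and none passed with higher counts. These were the serotonin receptor gene Htr7, the metabotropic glutamate receptor gene Grm7, the nicotinic subunit genes Chrna4 and Chrnb2, and the glycine receptor subunit gene Glra2. Over all tested genes, 0.543% were called lower and 0.072% higher, against 5.43% and 0 of the receptor genes. The receptor genes were chosen with earlier results of these data known, so these shares are a description. In the same 5 receptor genes, and in no other, every library labelled cKO lay below every control, which held for 1.66% of all tested genes, and in none did every one lie above, which held for 1.13%. At an unadjusted p under 0.05, 14 receptor genes (15.2%) were lower and 1 was higher, beside 5.62% and 3.81% of all tested genes. The count of 5 fell to 1, Htr7, without control 1, control 3 or cKO 5, beside 0.282%, 0.244% and 0.26% of all genes called lower by the same fits. It was 2 without cKO 2 (0.293% of all genes), 3 without control 5, cKO 3 or cKO 4 (0.332%, 0.443% and 0.316%), 4 without control 4 (0.354%) and 6 without cKO 1 (0.554%). It rose to 7 without control 2, 8 with DESeq2 and 9 with limma-voom, beside 0.98%, 1.4% and 1.66% of all genes; these 3 fits called 0 receptor genes higher, beside 0.0941%, 0.299% and 0.26% of all genes. The receptor genes as a list did not lie lower: their median log2 fold change was -0.01, as over all tested genes, and 48 of 92 had a negative value (52.2%, against 52.3% of all tested genes). The differences in these bulk libraries cannot tell fewer cells of a type from less RNA per cell.

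**Figure D1:**
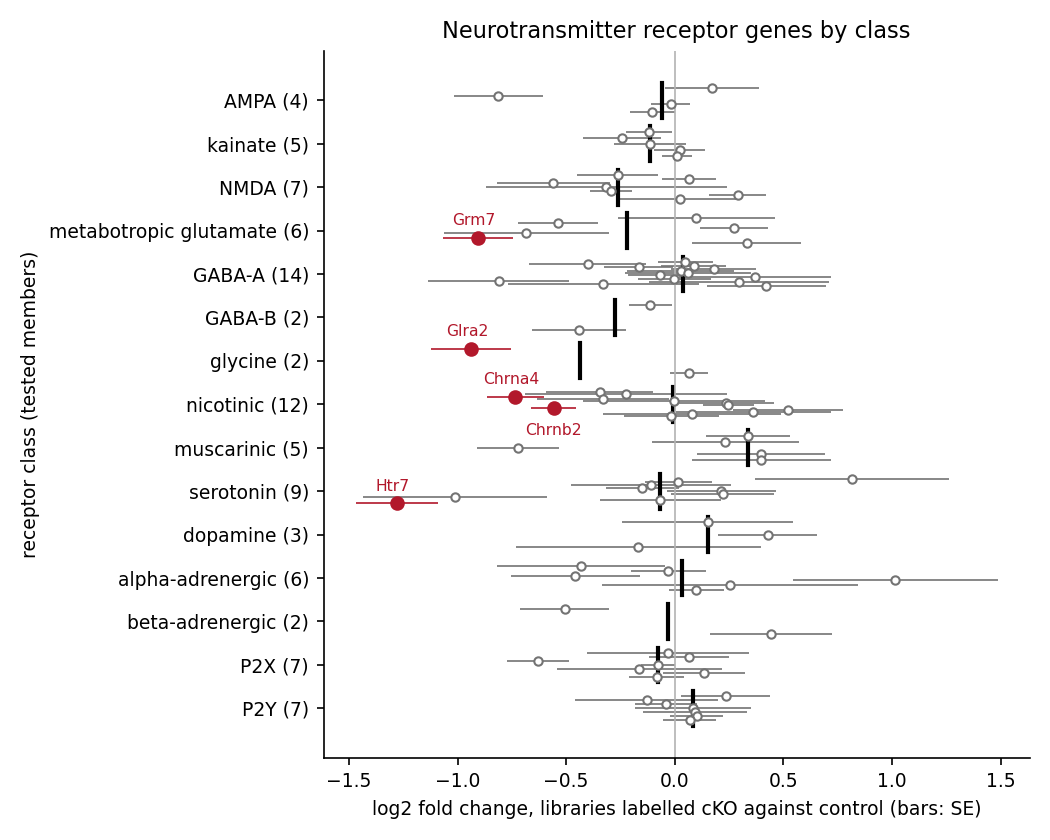
Log2 fold change of each of the 91 tested protein-coding receptor genes (horizontal axis, libraries labelled cKO against control, bars SE) by receptor class, with the number tested in parentheses and a black bar at each class median. Filled red points are the 5 genes at an edgeR adjusted p under 0.05, all to the left of 0 and in 4 classes.

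Sequence upstream of the start sites is shown for 3 of the called genes. The estrogen-related receptors are known to bind a core of 6 letters with an extension on its 5′ side. A window with that core can be read beside parts of windows without it. The stretches come from the 250 bases before the RefSeq transcription start (GRCm38.p6), 5′ to 3′ on the gene's strand, and end before any annotated exon. Chrnb2 is shown over all 250 bases. For Chrna4 (122 bases) and Htr7 (103 bases) only the part of the window farther from the start is shown. Capitals mark AGGTCA or its reverse complement TGACCT, that core. Chrnb2 lies at chr3:89764633-89764882 on the minus strand, Chrna4 at chr2:181039306-181039427 on the minus strand and within the annotated span of the gene, and Htr7 at chr19:36057508-36057610 on the minus strand.
Chrnb2: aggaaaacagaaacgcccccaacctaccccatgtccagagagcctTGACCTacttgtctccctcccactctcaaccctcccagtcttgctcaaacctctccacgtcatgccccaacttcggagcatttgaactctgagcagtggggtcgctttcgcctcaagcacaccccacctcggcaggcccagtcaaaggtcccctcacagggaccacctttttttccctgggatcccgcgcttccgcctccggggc
Chrna4: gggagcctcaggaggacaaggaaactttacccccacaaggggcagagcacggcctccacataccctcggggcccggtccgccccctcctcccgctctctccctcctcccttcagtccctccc
Htr7: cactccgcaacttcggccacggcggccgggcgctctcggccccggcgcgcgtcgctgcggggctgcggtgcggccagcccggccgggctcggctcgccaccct

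The searched window was 250 bases before each start on both strands, and promoters were found in the RefSeq table for 68 of the 92 tested receptor genes (87 promoters). The extended motif TCAAGGTCA was in 0 of these 87 and in 0.387% of all 32851 promoters in the table. The looser TNAAGGTCA, which includes the former, was also in 0 of the 87 and in 1.14% of all promoters. AAGGTCA was in 3 promoters (3.45%, those of Grin2c, P2rx4 and P2ry14) against 4.08% of all. The 6 letters AGGTCA were in 14 promoters (16.1%) of 13 genes against 14.0% of all, and of the 5 called genes only Chrnb2 held them, as printed above. The letter matches are a description of these windows.

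Among the serotonin receptors, Htr7 had the lowest fold change of all receptor genes tested. Htr7 encodes a G protein-coupled receptor that raises cyclic AMP, and its gene lies at chr19:35958734-36057507 (GRCm38). Its CPM were 6.23, 8.08, 6.71, 7.96 and 6.26 in control 1 to 5 and 2.40, 3.69, 3.99, 2.09 and 2.33 in cKO 1 to 5. All 5 libraries labelled cKO lay below all 5 controls, with cKO 2 and 3 the highest of their group. The log2 fold change was -1.28 (SE 0.190, a fold of 0.412, adjusted p = 0.00483), from 80 to 291 counts a library. The call held without any 1 library, with an adjusted p of at most 0.0207.

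The other serotonin receptor genes did not pass the test. Htr1b, an inhibitory G protein-coupled receptor and the member of this class with the highest level per length, had 3.07 ± 0.714 FPKM in the controls and 3.12 ± 0.467 in the libraries labelled cKO (SD of n = 5 libraries each). FPKM is the deposited level per kilobase of exon and per common library total. Htr3a, the subunit of the serotonin-gated cation channel, had 1.47 ± 0.189 against 1.72 ± 0.691 FPKM, with cKO 1 the highest at 2.75. Htr7 stood at 2.06 ± 0.269 against 0.849 ± 0.255 FPKM, so that it was above Htr3a on average in the controls and below it in the libraries labelled cKO. Its share of the summed FPKM of the 9 tested serotonin receptor genes was 27.4 ± 5.1% in the controls and 13.0 ± 4.5% in the other group. The class median log2 fold change was -0.07.

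**Figure D2:**
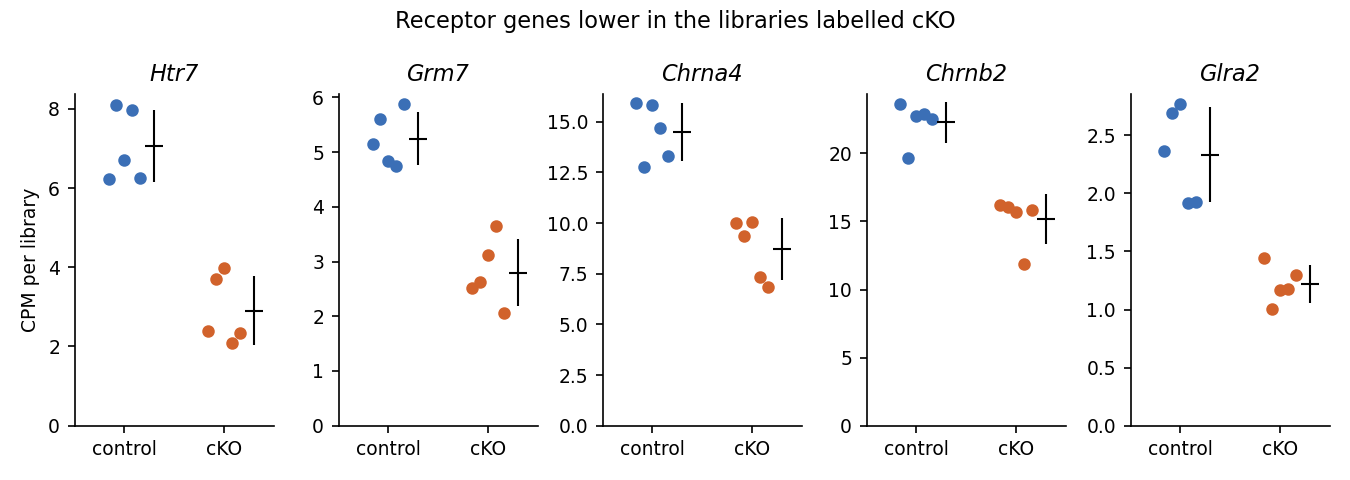
CPM per library (vertical axes, starting at 0) for the 5 receptor genes called lower, controls in blue and libraries labelled cKO in orange, with the mean and SD of 5 libraries beside each group. In none of the 5 genes do the groups overlap; for Htr7 the highest library labelled cKO is at 3.99 and the lowest control at 6.23.

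Nicotinic acetylcholine receptors are pentamers, and the alpha4 and beta2 subunits assemble into a high-affinity neuronal form. The genes of both subunits were lower in the libraries labelled cKO. Chrna4 (chr2:181018380-181043546) had 15.9, 12.8, 15.8, 14.7 and 13.3 CPM in control 1 to 5 and 10.0, 9.36, 10.1, 7.34 and 6.83 in cKO 1 to 5. The groups did not overlap, and cKO 4 and 5 were the lowest. The log2 fold change was -0.73 (SE 0.131, a fold of 0.601, adjusted p = 0.0199). The call ended without control 1, control 3, cKO 4 or cKO 5 (adjusted p = 0.0620, 0.0837, 0.0637 and 0.0533).

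Chrnb2 (chr3:89746195-89764632) had 23.6, 19.7, 22.7, 22.9 and 22.5 CPM in control 1 to 5 and 16.2, 16.1, 15.7, 11.9 and 15.8 in cKO 1 to 5. The groups again did not overlap, with control 2 the lowest control and cKO 4 the lowest of all. The log2 fold change was -0.56 (SE 0.103, a fold of 0.680, adjusted p = 0.0242). The call ended without control 1, 3, 4 or 5 (adjusted p = 0.0702, 0.0910, 0.0682 and 0.0590) and without cKO 2, 3 or 5 (0.0540, 0.05005 and 0.0620). With limma on log2(FPKM + 1) and on log2(FPKM + 0.1) it was also lost (adjusted p = 0.0570 and 0.0734). Its exons overlap those of Adar on the other strand, whose log2 fold change was 0.02.

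The muscle-type beta1 subunit gene Chrnb1 had the highest level per length of the nicotinic genes, 4.80 ± 0.682 FPKM in the controls and 5.72 ± 0.618 in the libraries labelled cKO, with overlapping groups (log2 fold change 0.25, adjusted p = 0.540). Of 12 skeletal muscle markers, 8 were tested, with summed levels of 9.0 to 12.8 CPM in the controls and 9.7 to 11.9 in the libraries labelled cKO. Of the 4 below the count minimum, Myod1 was at 0 in every library, and Ckm and Myh3 had at most 9 counts. Myog had 4 to 21 counts in the controls and 8 to 12 in the libraries labelled cKO. Chrna4 followed at 2.86 ± 0.288 against 1.73 ± 0.302 FPKM, with Chrnb2 at 2.64 ± 0.180 against 1.80 ± 0.216 FPKM and these neighbours did not differ beyond their SDs in either group. The share of Chrna4 in the summed FPKM of the 12 tested nicotinic genes was 21.4 ± 0.8% against 13.9 ± 2.0%, that of Chrnb2 19.8 ± 1.6% against 14.4 ± 0.4%, and that of Chrnb1 35.9 ± 3.8% against 46.1 ± 4.3%. The other 9 tested nicotinic genes had mean FPKM of at most 0.538 and did not pass the test, and the class median log2 fold change was -0.01, with 7 of 12 negative.

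Muscarinic receptors are the G protein-coupled receptors of acetylcholine, and their 5 tested genes were expressed at low levels. The highest were Chrm5 at 0.481 ± 0.165 against 0.639 ± 0.248 FPKM and Chrm1 at 0.476 ± 0.124 against 0.605 ± 0.0960 FPKM, and neither passed the test. In 4 of 5 the log2 fold change was positive, and the class median was 0.34. Chrm3, named here after its values were seen, was the exception, with 2.48, 2.81, 4.38, 3.94 and 3.67 CPM in control 1 to 5 and 1.77, 2.38, 2.52, 1.94 and 1.84 in cKO 1 to 5. Its groups overlapped (log2 fold change -0.72, adjusted p = 0.153), and DESeq2 called it (adjusted p = 0.0230).

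Metabotropic glutamate receptors modulate transmitter release and excitability, and Grm7 encodes a presynaptic member that couples to inhibitory G proteins. Grm7 (chr6:110645581-111567230) had 5.15, 5.61, 4.84, 4.74 and 5.88 CPM in control 1 to 5 and 2.52, 2.63, 3.12, 3.65 and 2.06 in cKO 1 to 5. All controls were above all libraries labelled cKO, of which cKO 4 was the highest. The log2 fold change was -0.91 (SE 0.161, a fold of 0.534, adjusted p = 0.0198). The call ended without control 1, 3 or 5 (adjusted p = 0.0526, 0.0513 and 0.0562) and without cKO 2 or 5 (0.0647 and 0.0550). An exon of Grm7 overlaps the antisense gene Gm20387, which itself had 7 to 34 counts a library and a log2 fold change of -1.32 (adjusted p = 0.0809); how strand was used in counting is not given in the sources used here, so shared reads cannot be told apart.

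Grm4, from the same group of receptors as Grm7, had the highest level of this class, 6.51 ± 1.60 FPKM in the controls and 7.89 ± 1.27 in the libraries labelled cKO. It did not pass the test (log2 fold change 0.27, adjusted p = 0.622), and its groups overlapped. Grm3 had 0.966 ± 0.153 against 0.667 ± 0.142 FPKM (log2 fold change -0.54, adjusted p = 0.339). Grm7 itself stood at 0.883 ± 0.0798 against 0.473 ± 0.103 FPKM. The median of the 6 tested metabotropic glutamate receptor genes was -0.22, with 3 negative and 3 positive values.

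Glycine receptors are chloride channels, and Glra2 encodes the alpha subunit that is typical of immature tissue. Glra2 (chrX:165129017-165327393) had 2.37, 2.69, 2.77, 1.91 and 1.93 CPM in control 1 to 5 and 1.44, 1.00, 1.17, 1.17 and 1.30 in cKO 1 to 5. The groups did not overlap, although control 4 and 5 lay near the upper libraries labelled cKO. The log2 fold change was -0.94 (SE 0.183, a fold of 0.522, adjusted p = 0.0316), from only 35 to 101 counts a library. The call ended without control 1 or 3 (adjusted p = 0.0794 and 0.122) and without cKO 2, 3, 4 or 5 (0.0993, 0.0812, 0.0989 and 0.0850).

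The beta subunit gene Glrb, whose product anchors glycine receptors at synapses, was expressed far more per length than Glra2: 8.49 ± 0.801 FPKM in the controls and 8.92 ± 0.711 in the libraries labelled cKO, against 0.734 ± 0.129 and 0.385 ± 0.0514 for Glra2. Glrb did not pass the test (log2 fold change 0.07, adjusted p = 0.828). Glra2 thus made up the remainder of a class in which Glrb held 92.1 ± 0.7% of the summed FPKM in the controls and 95.9 ± 0.4% in the other group. The other 3 alpha subunit genes, Glra1, Glra3 and Glra4, had at most 14 counts in any library and were not tested.

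**Figure D3:**
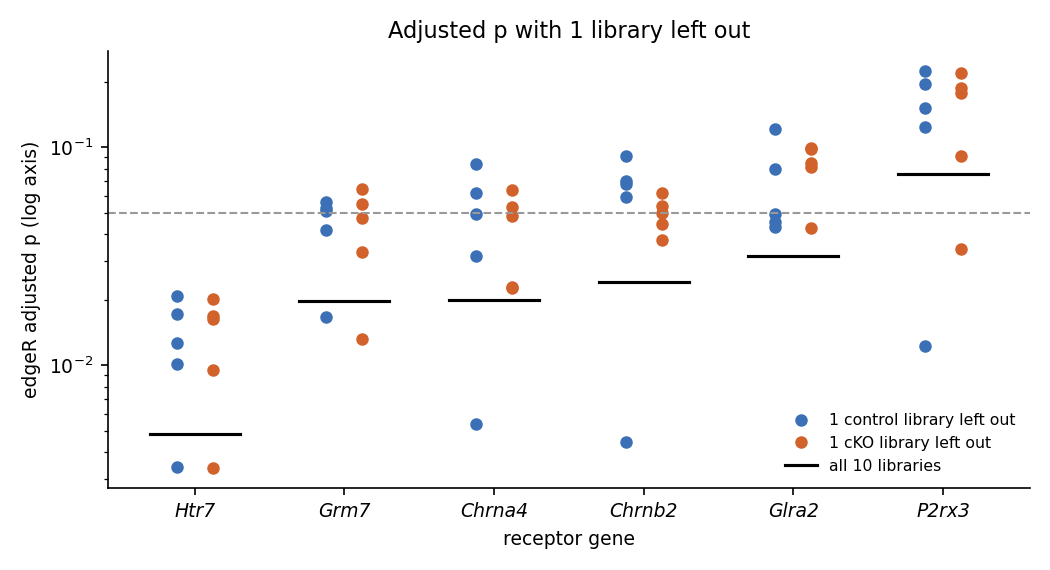
Adjusted p (edgeR, log axis) of the 5 called genes and of P2rx3 after leaving out each library in turn; blue points leave out 1 control, orange points 1 library labelled cKO, the black bar uses all 10 and the dashed line is at 0.05. Htr7 stays under the line in all 10 fits, Chrna4 in 6, Grm7 in 5, Glra2 in 4, Chrnb2 in 3 and P2rx3 in 2.

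P2X receptors are cation channels opened by ATP. P2rx3, a subunit typical of sensory neurons, had the highest level of the class and the second highest of all receptor genes, 18.0 ± 2.69 FPKM in the controls and 11.7 ± 2.41 in the libraries labelled cKO. Its CPM were 52.5, 38.8, 57.4, 56.3 and 48.7 in control 1 to 5 and 41.8, 32.7, 36.9, 25.04 and 27.7 in cKO 1 to 5. The groups overlapped only through control 2, which lay below cKO 1. The log2 fold change was -0.63 (SE 0.142, adjusted p = 0.0759), which did not pass the test. It was called without control 2 (adjusted p = 0.0123), without cKO 1 (0.0342), without a count filter (0.0204), by DESeq2 (0.00444) and by limma-voom (0.00245). Its exons overlap those of Ssrp1 on the other strand, whose log2 fold change was -0.03.

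The other P2X genes differed by less than their spread. P2rx4 had 3.96 ± 0.235 against 3.77 ± 0.202 FPKM (log2 fold change -0.08, adjusted p = 0.766), while P2rx2 and P2rx7 stood at log2 fold changes of 0.07 and -0.08 (both picked with their values known). P2rx3 held 60.9 ± 3.9% of the summed FPKM of the 7 P2X genes in the controls and 50.6 ± 4.1% in the libraries labelled cKO. Of the P2Y receptors, which couple to G proteins, P2ry2 had 3.78 ± 0.568 against 4.06 ± 0.525 FPKM and P2ry12 2.81 ± 0.304 against 2.75 ± 0.528 FPKM. None of the 7 tested P2Y genes passed the test, and their log2 fold changes lay between -0.13 and 0.23.

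AMPA receptors carry fast excitatory transmission, and Gria1 to Gria4 encode their subunits. Gria3 and Gria4 had the highest levels of the class, 7.04 ± 0.803 and 6.82 ± 1.02 FPKM in the controls and 6.98 ± 0.476 and 6.38 ± 0.516 in the libraries labelled cKO. Per kilobase of coding sequence in place of merged exons they stood further apart, at 26.1 and 15.5 CPM over all 10 libraries. These CPM are of the whole gene, and the merged exons are longer for Gria3 (9.859 kb) than for Gria4 (6.305 kb). Neither passed the test (log2 fold change -0.02 and -0.10, adjusted p = 0.955 and 0.771). Gria2, which encodes the subunit that limits calcium entry, is named here after its values were seen. It had 10.1, 6.22, 11.0, 12.6 and 14.6 CPM in control 1 to 5 and 7.38, 5.41, 6.56, 4.51 and 7.18 in cKO 1 to 5, so that control 2 lay inside the range of the other group. Its log2 fold change was -0.81 (adjusted p = 0.129), and it was called without control 2 (adjusted p = 0.00443), by DESeq2 (0.0101) and by limma-voom (0.00416).

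Kainate receptors combine low-affinity and high-affinity subunits, and Grik5, a high-affinity subunit, had the highest level per length of all tested receptor genes. It had 20.6 ± 1.18 FPKM in the controls and 20.9 ± 1.30 in the libraries labelled cKO, 79.6 ± 2.6% and 80.5 ± 1.6% of the summed FPKM of its class. Its log2 fold change was 0.01 (SE 0.0706, adjusted p = 0.969), and its CPM ranged from 102 to 117 and from 98.8 to 114. Grik4, the other high-affinity subunit, had 2.08 ± 0.305 against 2.13 ± 0.192 FPKM. None of the 5 kainate genes passed the test, with log2 fold changes between -0.24 and 0.02.

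NMDA receptors need the Grin1 subunit, and their Grin2 subunits set channel kinetics. Grin2d, an early expressed Grin2 subunit, was the highest at 2.61 ± 0.285 FPKM in the controls and 2.14 ± 0.104 in the libraries labelled cKO (log2 fold change -0.29, adjusted p = 0.317), and limma-voom called it (adjusted p = 0.0287). Grin1 followed at 1.18 ± 0.125 against 0.991 ± 0.314 FPKM (log2 fold change -0.26, adjusted p = 0.666). Grin3a, a subunit that lowers calcium entry and is named here after its values were seen, was the 1 receptor gene higher at an unadjusted p under 0.05, with a log2 fold change of 0.29 and an adjusted p of 0.519. The class median was -0.26 over 7 genes, the lowest of the classes with more than 2 tested genes, and it moved to between -0.31 and -0.02 when 1 library was left out.

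GABA-A receptors are chloride channels, and 14 of their 19 genes were tested; none passed. Their log2 fold changes lay between -0.81 and 0.42, with a median of 0.04 and 6 of 14 negative. The summed level of the class was 53.8 to 68.1 CPM in the controls and 57.8 to 69.2 in the libraries labelled cKO, so the ranges overlapped. GABA-B receptors are pairs of a Gabbr1 and a Gabbr2 subunit. Gabbr1 had 11.2 ± 0.963 against 10.4 ± 1.39 FPKM (adjusted p = 0.737), and Gabbr2 had 4.27 ± 1.09 against 3.16 ± 0.930 FPKM (log2 fold change -0.44, adjusted p = 0.554).

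Adrenergic and dopamine receptors are G protein-coupled receptors of catecholamines, and none of their 11 tested genes passed the test. Among the alpha receptors Adra2c had 4.87 ± 0.674 against 5.24 ± 0.834 FPKM. Adra2a, an inhibitory alpha2 receptor, had the highest log2 fold change of all receptor genes, 1.01 (SE 0.471, adjusted p = 0.540). Its CPM were 22.9, 11.4, 9.07, 7.30 and 11.0 in control 1 to 5 and 58.7, 10.9, 18.7, 14.0 and 22.8 in cKO 1 to 5, so control 1 and cKO 1 stood above their groups and the ranges overlapped. Without cKO 1 its log2 fold change was 0.42. Among the beta receptors Adrb1 had 0.888 ± 0.209 against 0.628 ± 0.129 FPKM (log2 fold change -0.51, adjusted p = 0.455). Of the dopamine receptors, Drd4 had 0.412 ± 0.0847 against 0.557 ± 0.142 FPKM, and Drd5 had 0 to 18 counts a library.

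**Figure D4:**
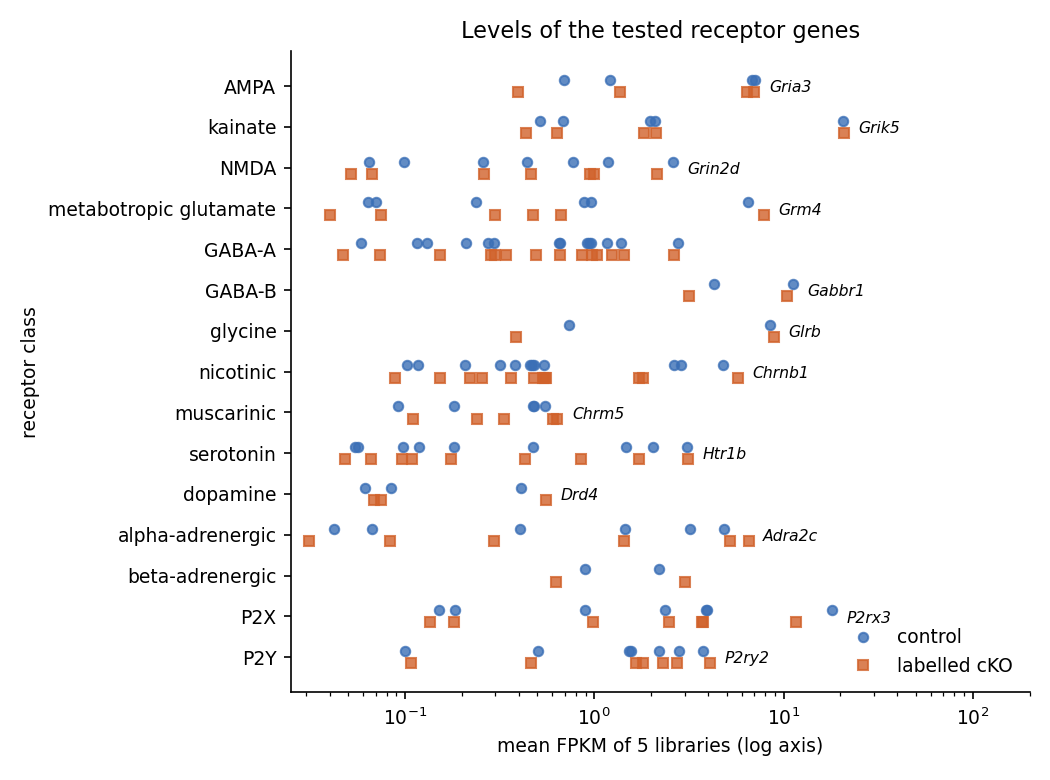
Mean FPKM of 5 libraries (horizontal log axis) of each tested protein-coding receptor gene by class, blue circles for control and orange squares for the libraries labelled cKO; where a name is given, it is that of the gene with the highest mean over all 10 libraries. Grik5 and P2rx3 lead at 20.7 and 14.9 FPKM over all 10 libraries, and the muscarinic and dopamine classes stay below 1.

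Receptor genes were expressed at low levels for this tissue. The median of their mean FPKM was 0.565, against 4.36 over all tested genes, and 35 of 92 exceeded 1 FPKM, 38.0% against 75.4%. By mean FPKM over all 10 libraries, Grik5 (20.7), P2rx3 (14.9), Gabbr1 (10.8), Glrb (8.70), Grm4 (7.20), Gria3 (7.01) and Gria4 (6.60) came first. Grm4, Gria3 and Gria4 differed by less than their SDs on this scale. For most genes FPKM rests on the merged exons, but the FPKM of Adra2a and Adrb1 imply a shorter length than that. With the longest coding sequence as the length, an alternative chosen after seeing the data, the same gene came first in 13 of 15 classes. Chrm1 and Adra2a replaced Chrm5 and Adra2c. The counts were still those of the whole gene, so genes with long exons outside the coding sequence rank higher by this measure.

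Of the 23 receptor genes below the count minimum, Gabra6, a GABA-A subunit typical of cerebellar granule cells, had 0 counts in all 10 libraries. The others had at most 28 counts in any library. Htr2b, with at least 10 counts in 4 libraries, lay just outside the filter. The antisense genes Grin1os, below the filter, and Chrna1os, tested at a log2 fold change of -0.45 (adjusted p = 0.559), match the symbol patterns but encode no receptor, and they were kept out of the classes.

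The partner genes of the receptors, 111 genes for auxiliary subunits, scaffolds, chaperones, transporters and enzymes, were read from a separate list. That list was also chosen with earlier results of these data known. Of the 102 tested, 3 were called lower (2.94%) and 0 higher, beside 0.543% and 0.072% of all tested genes. At an unadjusted p under 0.05 there were 17 lower (16.7%) and 7 higher (6.86%), beside 5.62% and 3.81% of all tested genes, and the median log2 fold change was -0.01. Slc17a7, the vesicular glutamate transporter VGLUT1 of spiral ganglion neurons, had 19.8, 20.3, 25.3, 27.0 and 20.2 CPM in control 1 to 5 and 11.1, 9.96, 13.0, 9.31 and 8.05 in cKO 1 to 5. The groups did not overlap (log2 fold change -1.13, SE 0.139, adjusted p = 0.00117), and the call held without any 1 library. Slc6a11, a GABA transporter, fell by 0.86 on the log2 scale (SE 0.175, adjusted p = 0.0422) and Iqsec3, a scaffold-associated exchange factor of inhibitory synapses, fell by 0.80 (SE 0.166, adjusted p = 0.0479). Both of these calls were lost when any library other than control 2 was left out, with adjusted p from 0.0585 to 0.146 for Slc6a11 and from 0.0702 to 0.159 for Iqsec3; without control 2 they were 0.0104 and 0.000276. Chat, the enzyme that makes acetylcholine, and Slc18a3, its vesicular transporter, had 0 counts in all 10 libraries.

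Markers of cell types in and around the cochlea differed between the groups to varying degrees. Of 15 neuron markers, 11 had negative log2 fold changes, with a median of -0.25. Elavl4 was called lower (log2 fold change -0.74, adjusted p = 0.00117), beside 0.543% of all tested genes. The levels below are sums over the neuron markers. Their summed level was 1451 to 1539 CPM in the controls and 933 to 1707 in the libraries labelled cKO. Of 10 Schwann cell and satellite glia markers, 8 were negative with a median of -0.39 and none was called, and their sums were 1409 to 1634 against 1001 to 1485 CPM. At an unadjusted p under 0.05, 6 neuron markers were lower and 1 was higher, and 5 glia markers were lower and 0 higher. Of all tested genes, 5.62% were lower and 3.81% higher by that measure.

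Of 10 genes listed as markers of brain, 5 were tested, all with negative values and a median of -1.61. Olig1, Olig2 and Aqp4 were called lower, beside 0.543% of all tested genes. Olig1 had 7.05, 9.39, 7.91, 6.24 and 5.37 CPM in control 1 to 5 and 0.720, 1.29, 1.82, 0.638 and 0.840 in cKO 1 to 5. The summed level of the tested brain markers was 58.8 to 91.2 CPM against 54.4 to 66.1, mostly Cspg5. Hoxb5 was at 0 in all libraries, and Neurod6, Pcp2, Slc6a5 and Sox1 had at most 36 counts. The hair cell markers had a median of -0.06, with none called. All 7 erythroid markers had negative values, with a median of -0.75 and none called, and their summed level was 718.5 to 2932 CPM in the controls, highest in control 2, and 443.8 to 1298 in the libraries labelled cKO. All 6 marginal cell and all 6 melanocyte markers had positive values, with medians of 0.20 and 0.14 and none called; their sums were 803 to 1070 against 1032 to 1103 CPM and 252 to 333 against 293 to 331 CPM. The macrophage, endothelium and muscle lists had medians of 0.06, 0.11 and -0.19, with none called. The part of these cell types in the receptor differences was not tested.

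**Figure D5:**
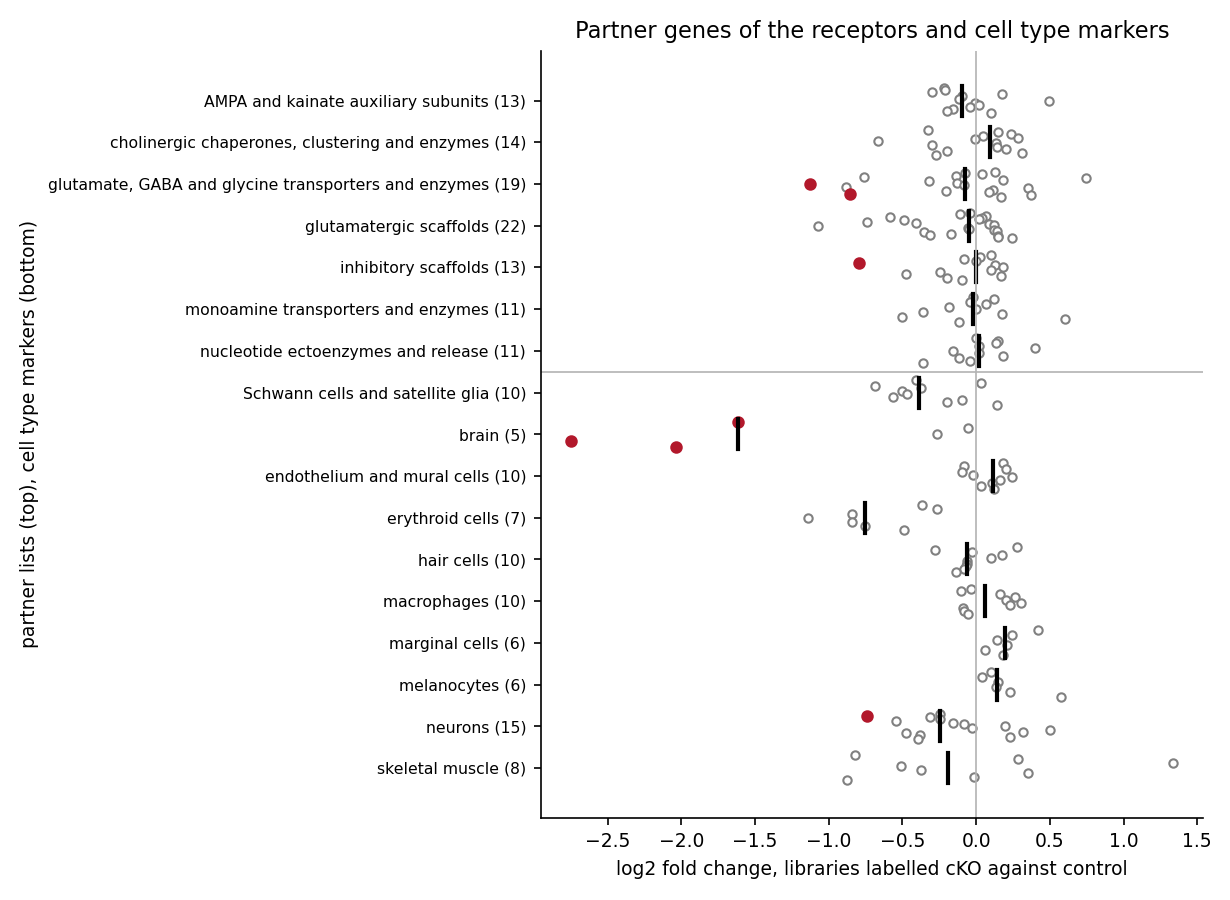
Log2 fold change (libraries labelled cKO against control) of each tested gene of the partner lists, above the line, and of the cell type marker lists, below it, with the number tested in parentheses and a black bar at the median. Red points are genes at an adjusted p under 0.05; the brain list has its median at -1.61 and the neuron list at -0.25.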

How the data were processed

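Messenger RNA of the cochlear soft tissue was measured in 10 libraries, 5 per genotype, each from 1 animal per the labels. Per the labels' protocols, libraries were made after poly A enrichment and read as paired reads of 150 bp. The submitters' processing notes name STAR 2.5, HTSeq 0.61, DESeq2 and the build mm10, with no roles; annotation release and strand setting are not given in the sources used here. The authors deposited whole-number counts per Ensembl gene, and FPKM, the counts per kilobase of each gene and per library total. The length behind the deposited FPKM lay within 1% of the merged exons of GENCODE M21 (GRCm38) for 95.7% of the 13928 genes with 50 or more counts in each column, so gene positions and overlaps were taken from M21.

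Counts were tested with edgeR 4.0.16 (robust quasi-likelihood, TMM factors, genotype as the only term, R 4.3.3) on all 18061 genes with at least 10 counts in at least 5 libraries, and p was adjusted by Benjamini-Hochberg over all of them; a call is an adjusted p under 0.05. CPM used the TMM-scaled totals. The biological coefficient of variation was 16.2%. DESeq2 1.42.0, limma-voom (limma 3.58.1) with quality weights, limma on log2(FPKM + 1) and log2(FPKM + 0.1), other factors and filters, and leaving out each library were alternatives. The test was checked on simulated data. Promoters came from the RefSeq table of GRCm38.p6.

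The members and lists were chosen with earlier results of these data known. Named genes are Esrrg, members called, members at an unadjusted p under 0.05 whose groups do not overlap, the 2 members of each class with the highest mean FPKM, and partner genes called; others are said to be chosen after their values were seen. Some genes that meet this rule are not reported here one by one; they are in all counts and medians.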

Additional observations from a re-analysis of the deposited data

Results flagged for a closer look

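In each tested receptor gene and genotype, the highest and the lowest of the 5 CPM values were compared with their nearest neighbour (Dixon's ratio, critical value 0.71). Of 184 such groups 12 stood out, where chance gives about 1 in 20, or 9.2. Of these, 10 are given here. Control 2 was low for 2 of the 10: Gabrb2 at 1.75 CPM beside 6.88 to 7.33 in the other controls, and Gabbr1 at 75.0 beside 89.3 to 94.9. The cause was not tested.

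The other low values were Chrnb2 in cKO 4 (11.9 CPM beside 15.7 to 16.2), Chrna7 in cKO 2 (2.20 beside 2.57 to 2.64) and P2ry13 in cKO 1 (1.59 beside 4.51 to 5.51). The high values were Chrna5 in control 1 (1.66 CPM beside 0.722 to 0.943), Chrm2 in control 5 (1.13 beside 0.361 to 0.562), Adrb1 in control 4 (3.14 beside 1.85 to 2.13), and Adra2a both in control 1 (22.9 beside 7.30 to 11.4) and in cKO 1 (58.7 beside 10.9 to 22.8). Apart from those of the rule for named genes (Gabbr1, Chrnb2, Adra2a and Adrb1), these genes were chosen after their values were seen.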

How the results depend on the processing

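The count of receptor genes called lower stayed at 5 for both other scalings, 2 other filters and the non-robust fit, was 6 without a filter and 4 with both FPKM fits, and was 8 with DESeq2 (1.4% of all genes) and 9 with limma-voom (1.66%); DESeq2 added Chrm3, Gria2 and P2rx3, and limma-voom these and Grin2d. Without 1 library it ranged from 1 (without control 1, control 3 or cKO 5, each time Htr7, beside 0.282%, 0.244% and 0.26% of all genes) to 7 (without control 2, beside 0.98%). Same-numbered libraries correlated weakly (correlations of deviations 0.023 to 0.180, 2 of 5 over 0.1), and 6 of 10 libraries correlated best with their own number. Between different numbers the correlations were -0.283 to 0.170. These values do not settle whether the libraries were paired. A fit with the replicate block called 3 receptor genes (Chrna4, Chrnb2 and Htr7), with Grm7 at an adjusted p of 0.0579 and Glra2 at 0.0870. It also called 1 partner gene and had 4 receptor genes higher at an unadjusted p under 0.05. Esrrg had a log2 fold change of 0.609 in that fit (adjusted p = 0.0623). The Esrrg call was also lost with limma on log2(FPKM + 1) (log2 fold change 0.566, adjusted p = 0.0525). With limma on log2(FPKM + 0.1) it was lost too (log2 fold change 0.609, adjusted p = 0.0504). The Esrrg log2 fold change was 0.54 to 0.69 without 1 library. Receptor genes higher at an unadjusted p under 0.05, 1 in all, were 2 without a filter, with the 1 CPM filter, with limma-voom and without robust estimation, 4 with DESeq2, and 0 to 4 without 1 library. Partner genes called, 3 in all, were 10 with DESeq2, 11 with limma-voom, 1 with each FPKM fit and 1 to 7 without 1 library. Receptor genes without overlap were 5 to 10 lower (5.43 to 10.9%) and 0 to 1 higher (0 to 1.09%) without 1 library, beside 1.94 to 2.94% and 1.33 to 2.52% of all tested genes. Without a filter the glycine median was 0.018 and the beta-adrenergic one -0.499, over more genes; with log2(FPKM + 1) the NMDA, metabotropic glutamate and glycine medians were -0.017, -0.012 and -0.128, and the NMDA median was -0.31 to -0.019 without 1 library. Some log2 fold changes changed sign, not all of them near 0. They were Grik5 with upper-quartile factors (-0.0014), and Drd5 (0.382) and P2ry2 (-0.012) with limma-voom. Without 1 library they were Drd5 (-0.49 to 0.18), Gria3 (-0.091 to 0.014), Grik4 (-0.053 to 0.085), Grik5 (-0.0094 to 0.042), Htr1b (-0.051 to 0.16), Htr3a (-0.011 to 0.36) and P2ry12 (-0.12 to 0.037). The causes were not tested. Low counts limit the genes near the count minimum. The share of all genes is not given here for the other scalings and filters, the non-robust and FPKM fits and the replicate block. Nor is it given for unadjusted p in any alternative fit. Receptor gene counts from those settings therefore stand without a background.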
